A study of Mus musculus with 44 samples.

Results

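Nodal and activin signalling was followed in mouse embryonic stem (ES) cells through 6 genes: the ligand Nodal, the activin subunit Inhbb, the antagonist Lefty1, the co-receptor Tdgf1 and the co-repressors Ski and Skil. The members were all probe sets whose platform gene symbol was 1 of these 6, which gave 6 of the 8251 genes with a probe set of a single symbol, and 7 probe sets of 12488 on the array, 2 of them for Lefty1. No filter on low values was used, so all 7 were among the 12422 probe sets tested. Total RNA of CGR8 cells, an ES cell line used here as its cgr8.8 clone, was hybridised to 44 Affymetrix MG-U74Av2 arrays, 1 sample each. The labels placed 40 arrays in 11 groups, and 4 arrays whose own titles disagree were not compared.

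All groups came from cgr8.8 cells, and every group but the wild type also carried an insert at Rosa26, a locus active in most mouse cells. Wild-type cells were on 4 arrays. Cells with Hex at Rosa26 were on 4 arrays as unrecombined cells and on 4 as recombined cells, with no 4-hydroxytamoxifen (4-OHT) named and no clone given. Cells with HexERTVP2 at Rosa26 came as 2 clones. For clone 1, unrecombined cells were on 5 arrays without 4-OHT and on 3 with it, and recombined cells on 4 arrays in each state. Clone 2 had 3 arrays in each of these 4 groups. Hex is a homeodomain transcription factor (gene Hhex). The ERT in HexERTVP2 is the usual name of an oestrogen receptor domain that answers to 4-OHT, and the labels do not spell out VP2. No label names a promoter, dose or time, what recombination changes at the locus, or whether arrays came from separate cultures, so p-values measure the spread between these arrays only.

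Nodal is a secreted ligand of the TGF-β family that binds activin receptors, needs a co-receptor such as Tdgf1 (Cripto), and leads to phosphorylation of Smad2 and Smad3, which enter the nucleus with Smad4 and act with partners such as Foxh1. Activins, dimers of inhibin beta subunits, use the same receptors without Cripto. Lefty1 is a target of the pathway and blocks Nodal, while Ski and Skil bind Smads and repress their targets. In the embryo Nodal signalling patterns the anterior-posterior axis and induces mesendoderm, and in cultured ES cells it is active at a low level.

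ES cell identity was checked with 12 pluripotency genes, the member Tdgf1 among them, of which 11 lay above the array median. Their mean level by group ran from 9.57 to 9.99 on the log2 scale. Of other markers, 5 of 12 for endoderm, 2 of 10 for primitive streak, 2 of 6 for neuroectoderm and 5 of 10 for fibroblasts lay above it. A level above the array median is thus not particular to pluripotency genes. The Hhex probe set did not separate the groups: recombined Hex arrays read 6.11 to 6.46 and wild-type arrays 6.08 to 6.23 in log2 intensity, and the labels do not say whether its probes lie in the insert, so it checks no label. Array 2 of unrecombined Hex stood apart. Its mean correlation with the other arrays was 0.869 against 0.978 to 0.990 for the rest, and the SD of its log2 values was 1.60 against 1.79 to 1.98. Results are therefore given with and without it. Leaving it out also lowers the spread that the fit shares across groups, so it moves p-values in comparisons that do not contain it.

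RefSeq promoter windows (GRCm38.p6) were found for 4 of the 6 genes: Nodal, Inhbb, Tdgf1 and Ski. The 250 bases before the annotated start are shown for Nodal, Inhbb and Tdgf1, the members whose recombined HexERTVP2 arrays differed most with 4-OHT. TAAT, read on both strands (as ATTA on the other), is the core that many homeodomain proteins recognise, and it is in capitals.
Nodal, chr10:61417722-61417971, plus strand: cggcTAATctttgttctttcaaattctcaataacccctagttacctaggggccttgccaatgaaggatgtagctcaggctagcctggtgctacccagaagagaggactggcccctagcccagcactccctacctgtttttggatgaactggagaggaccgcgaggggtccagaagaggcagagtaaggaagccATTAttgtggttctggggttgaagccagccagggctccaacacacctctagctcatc
Inhbb, chr1:119422249-119422498, minus strand: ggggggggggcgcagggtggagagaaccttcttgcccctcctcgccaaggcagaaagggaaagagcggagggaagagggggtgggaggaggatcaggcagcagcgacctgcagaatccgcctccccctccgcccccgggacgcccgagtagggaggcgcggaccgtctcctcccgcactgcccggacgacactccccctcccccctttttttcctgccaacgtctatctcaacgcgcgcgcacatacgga
Tdgf1, chr9:110946159-110946408, minus strand: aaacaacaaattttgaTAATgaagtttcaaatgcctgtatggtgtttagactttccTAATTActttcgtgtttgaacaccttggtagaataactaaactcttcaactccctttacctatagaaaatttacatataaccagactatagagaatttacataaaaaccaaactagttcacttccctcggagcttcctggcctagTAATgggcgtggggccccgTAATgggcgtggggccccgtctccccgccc

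The Nodal window held 2 matches to TAAT, at positions -246 and -57 from the start, and the Tdgf1 window held 5, of which 2 overlap in TAATTA. The Inhbb and Ski windows held 0. Of all promoter windows of this length, 54.9% held a match, and the GC content was 53.2% for Nodal, 42.0% for Tdgf1, 68.0% for Inhbb and 87.6% for Ski. The Foxh1 motif AATNNACA was matched 2 times in the Tdgf1 window and 0 times in the other 3, against a share of 10.9% of all windows with a match. CAGAC, the Smad motif, was matched once in the Tdgf1 window only among these 4, against 42.2% of all windows. The Tcf/Lef core CTTTG was matched once in the Nodal window, directly after the first TAAT, and 0 times in the other 3, against 48.6% of all windows. A match describes these letters and is not a measured site.

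**Figure D1:**
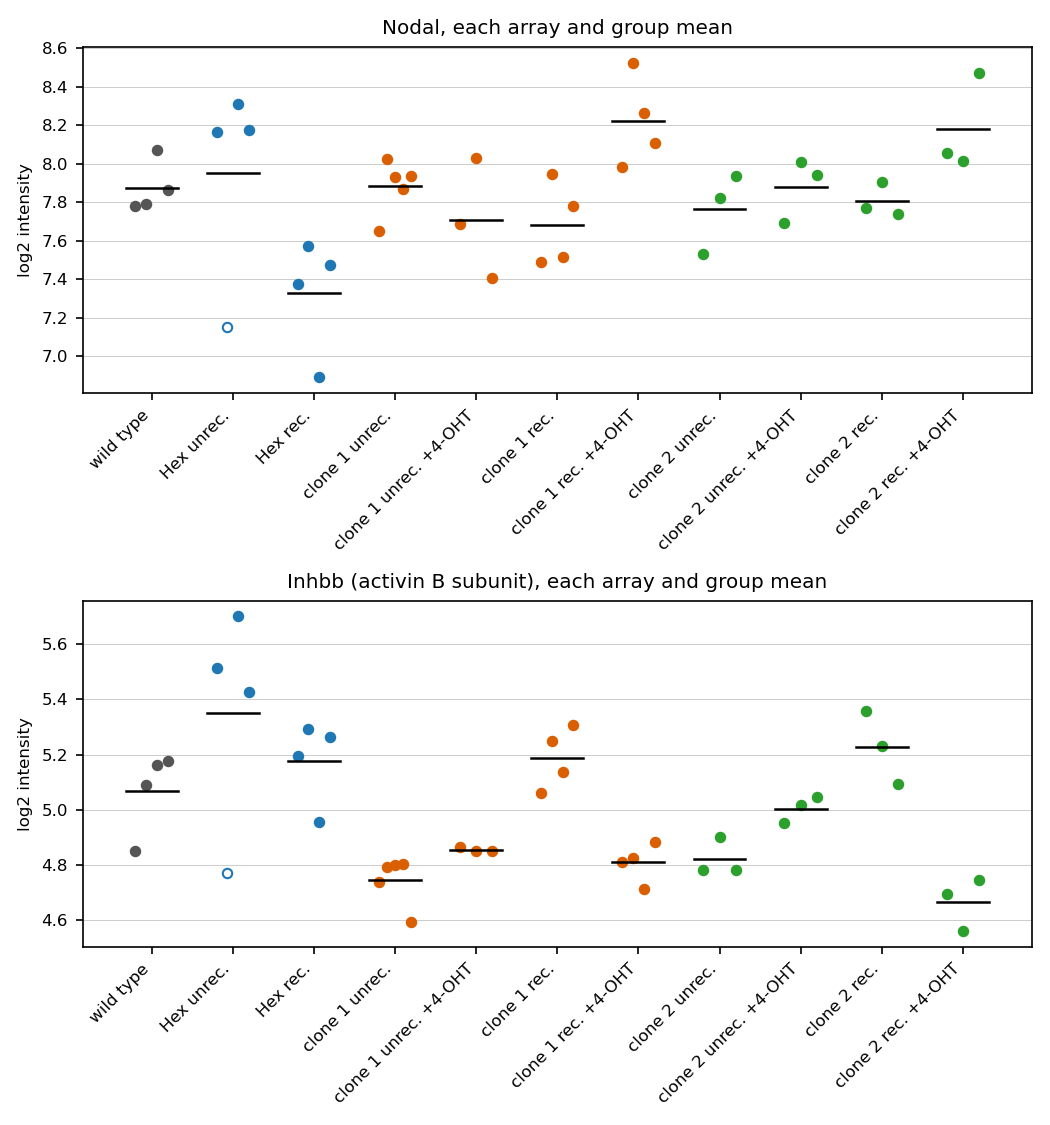
Log2 intensity of Nodal (top) and Inhbb (bottom) on each of the 40 arrays (points) by group, with group means as black lines; colours mark wild type, Hex, clone 1 and clone 2 of HexERTVP2, and the open point is array 2 of unrecombined Hex. The lowest Nodal mean is that of recombined Hex at 7.33, and Inhbb in recombined HexERTVP2 cells lies at 5.06 to 5.36 without 4-OHT and at 4.56 to 4.88 with it.

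By group mean with all arrays, Nodal, the ligand itself, was lowest in recombined Hex cells and highest in recombined HexERTVP2 cells with 4-OHT. Without its array 2, unrecombined Hex had a mean of 8.22, as did recombined clone 1 with 4-OHT (8.22). In log2 intensity the 4 recombined Hex arrays read 7.38, 7.57, 6.89 and 7.47. The unrecombined Hex arrays read 8.17, 7.15, 8.31 and 8.18, and the wild-type arrays read 7.78, 7.79, 8.07 and 7.86. Every recombined array was below every wild-type array and below unrecombined arrays 1, 3 and 4, while unrecombined array 2 fell inside the recombined range. The difference between recombined and unrecombined Hex was -0.62 ± 0.18 (SE, log2, n = 4 and 4), with an adjusted p of 0.0502 in limma, and so did not pass the threshold of 0.05. Without array 2 it was -0.89 ± 0.15, or 1.85-fold lower, with an adjusted p of 2.17e-04. It also passed when any 1 of 5 HexERTVP2 arrays was left out (adjusted p from 0.0466 to 0.0498). Fitted on the 8 Hex arrays alone the adjusted p was 0.978.

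Against wild type, Nodal in recombined Hex differed by -0.55 ± 0.18 (SE, log2, adjusted p = 0.389). The same difference without array 2, which is in neither group, had an adjusted p of 0.0427. Both comparisons use the same recombined arrays. Of all probe sets, 0.266% passed against wild type with all arrays and 1.37% without array 2. Unrecombined Hex and wild type differed in Nodal by 0.08 ± 0.18, or by 0.34 ± 0.15 without array 2, and neither passed.

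In recombined HexERTVP2 cells Nodal read higher with 4-OHT in both clones. Clone 1 without 4-OHT read 7.49, 7.95, 7.52 and 7.78, and with 4-OHT 7.98, 8.52, 8.26 and 8.11. Clone 2 read 7.77, 7.90 and 7.74 without it and 8.06, 8.01 and 8.47 with it. No array without 4-OHT reached the lowest with it in either clone. Averaged over clones the difference was 0.46 ± 0.14 (SE, log2), with an adjusted p of 0.99998 over all probe sets, and it passed neither with all arrays nor without array 2 (adjusted p = 0.0916). It was 0.54 in clone 1 and 0.38 in clone 2 (0.23 without array 4 with 4-OHT of that clone), where 0.00805% and 0% of probe sets passed, and the difference between the clones, -0.16 ± 0.28, did not pass. The log2 ratio of 3′ to 5′ β-actin probe sets, which rises as RNA or its labelling is shortened, differed by -0.62 in clone 1 and by 0.32 in clone 2 between the same arrays, and its part in the result was tested only as a covariate, which gave 0.39 ± 0.10 for Nodal. By clone the covariate gave 0.27 ± 0.13 in clone 1 and 0.52 ± 0.14 in clone 2, which turns the order of the clones. In unrecombined HexERTVP2 cells, where arrays read 7.40 to 8.03 with 4-OHT and 7.53 to 8.02 without, the difference was -0.03 ± 0.14. The interaction of 4-OHT with recombination was 0.49 ± 0.20 (adjusted p = 0.9997).

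Ordered by mean log2 level, Nodal ran from 8.22 ± 0.23 (SD, n = 4) in recombined clone 1 with 4-OHT and 8.18 ± 0.25 (SD, n = 3) in recombined clone 2 with 4-OHT down to 7.68 ± 0.22 in recombined clone 1 without it and 7.33 ± 0.30 in recombined Hex. Of the steps between neighbours in this order, only the last, 0.36, was larger than the larger SD of its 2 groups. Without array 2 unrecombined Hex would stand at 8.22 ± 0.08 (SD, n = 3). The range of group means, 0.89, was at the 96.5th percentile of all probe sets. For the other members it was at the 91.1th (Lefty1), 90.7th (Inhbb), 85.3th (Tdgf1), 62.3th (Skil) and 47.3th (Ski). This ranking does not account for the spread within groups.

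Inhbb encodes the beta B subunit of activin B and of inhibin B. In the 9 planned comparisons it was the 1 member to pass the threshold with all arrays, in both cases in recombined HexERTVP2 cells. Without 4-OHT clone 1 read 5.06, 5.25, 5.14 and 5.31 in log2 intensity as recombined cells and 4.74, 4.79, 4.80, 4.80 and 4.59 as unrecombined cells. Clone 2 read 5.36, 5.23 and 5.09 recombined and 4.78, 4.90 and 4.78 unrecombined. Recombined arrays lay above all unrecombined ones in each clone. The difference over clones was 0.42 ± 0.09 (SE, log2), or 1.34-fold higher, with an adjusted p of 0.0126, and 0.467% of all probe sets passed in this comparison (3.38% without array 2 of unrecombined Hex). The 2 clones gave 0.44 and 0.41. The call ended without clone 2 unrecombined array 3 (adjusted p = 0.0576) or clone 2 recombined array 2 (0.0717).

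With 4-OHT the recombined arrays read 4.81, 4.83, 4.71 and 4.88 in clone 1 and 4.70, 4.56 and 4.75 in clone 2, all below the recombined arrays without it. Inhbb fell by 0.47 ± 0.09 on the log2 scale, 1.39-fold, with an adjusted p of 0.0262, where 0.0322% of all probe sets, 4 of them, passed (0.145% without that array). The recombined arrays without 4-OHT are shared with the recombination comparison above, so the rise and the fall are not independent. The call ended when any 1 of 8 arrays of recombined cells was left out (adjusted p from 0.0597 to 0.210), and without array 2 of unrecombined Hex it was 4.23e-05. In unrecombined cells, 4-OHT gave a difference of 0.15 ± 0.09, which did not pass. There every array with 4-OHT read above every array without it in each clone. Clone 1 read 4.85 to 4.87 with it against 4.59 to 4.80, and clone 2 read 4.95 to 5.04 against 4.78 to 4.90. The comparison of 4-OHT in unrecombined cells called 0 of all probe sets (0%) in limma, with 169 at an unadjusted p under 0.05. The interaction was -0.62 ± 0.13 with an adjusted p of 0.120, where 0.0161% of probe sets passed. It passed without array 2 of unrecombined Hex (5.50e-04, against 0.0644% of probe sets) and without array 3 of that group (0.0360).

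In Hex cells the Inhbb arrays read 5.51, 4.77, 5.70 and 5.43 unrecombined, 5.19, 5.29, 4.95 and 5.26 recombined, and 4.85, 5.09, 5.16 and 5.18 in wild type. Array 2 was again the lowest of its group, and the other unrecombined arrays were above all arrays of both other groups. Recombined minus unrecombined was -0.18 ± 0.12 (SE, log2, adjusted p = 0.462), and -0.37 ± 0.09 without array 2 (adjusted p = 0.00585). Unrecombined minus wild type was 0.28 ± 0.12 (adjusted p = 0.150), and 0.48 ± 0.09 without array 2 (adjusted p = 5.04e-04). Of all probe sets 4.82% passed between unrecombined Hex and wild type, and 3.63% without array 2.

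The Inhbb signal was dim. Its group means lay between the 15.1th and the 24.3th percentile of the probe sets on an array, below the array median in every group. The table holds no detection calls, so the signal was not shown to exceed background, and a change in it can be smaller than the change in RNA. By level, unrecombined Hex stood first at 5.35 ± 0.40 (SD, n = 4) and recombined clone 2 with 4-OHT last at 4.67 ± 0.10 (SD, n = 3). The 1 step larger than the larger SD was between unrecombined clone 2 with 4-OHT at 5.005 ± 0.05 and unrecombined clone 1 with 4-OHT at 4.85 ± 0.01.

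**Figure D2:**
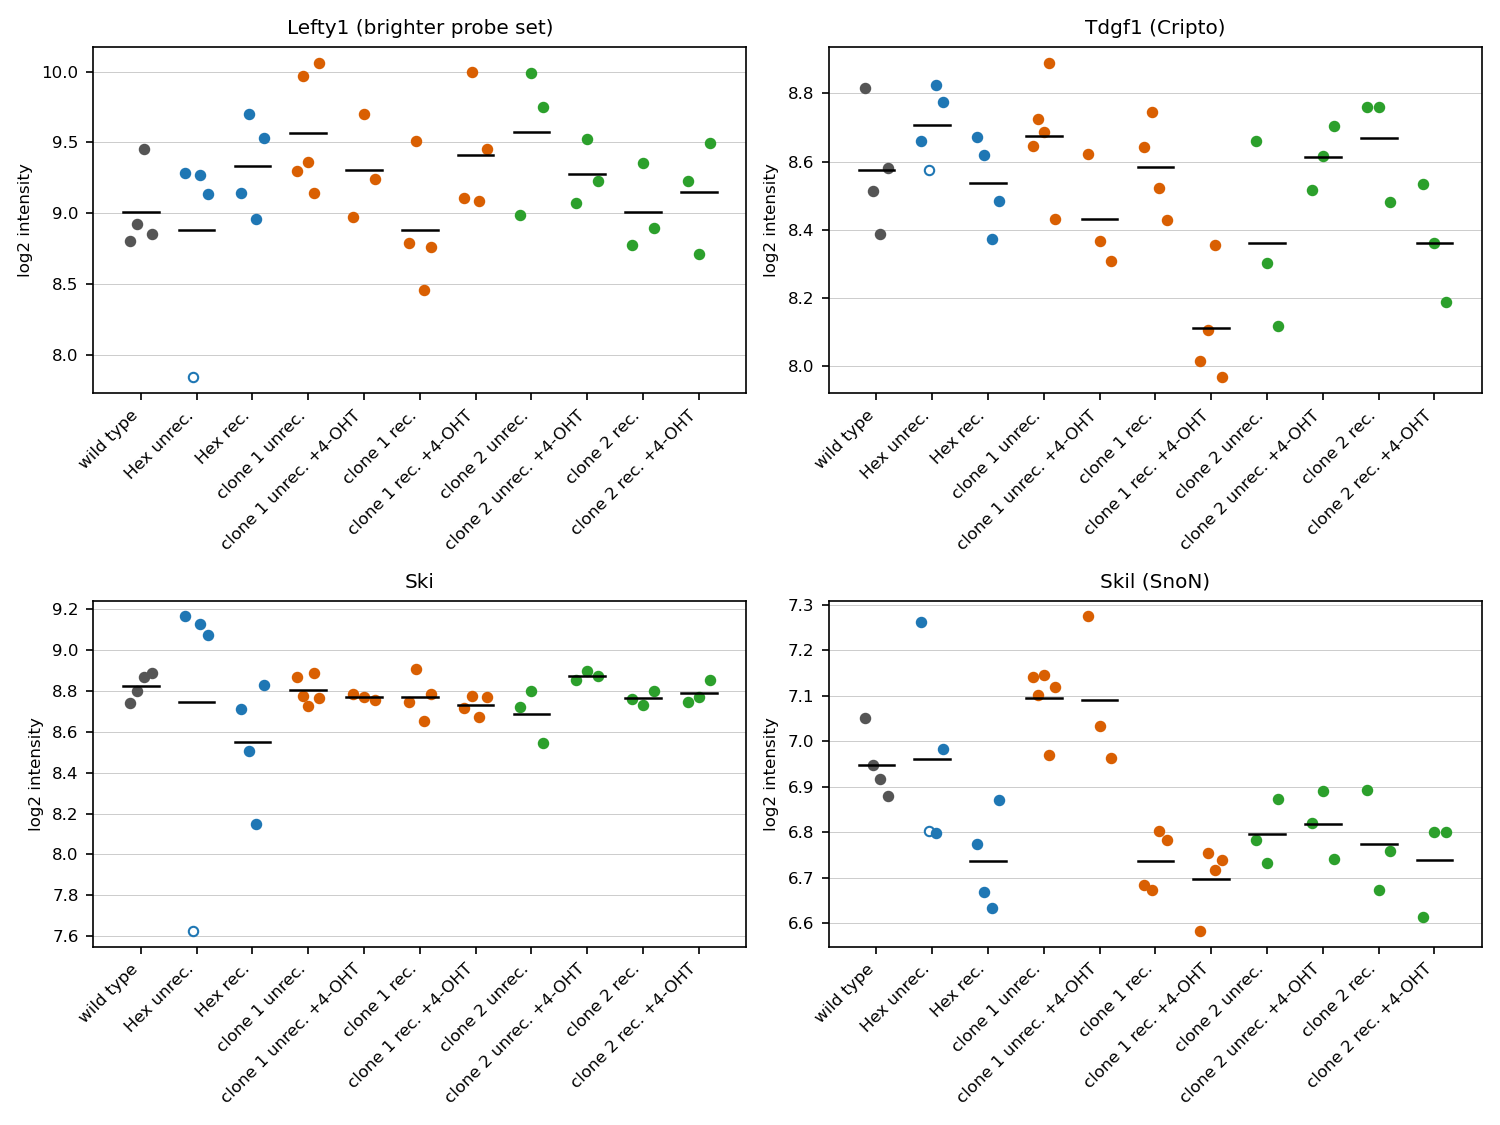
Log2 intensity of Lefty1 (brighter probe set), Tdgf1, Ski and Skil on each of the 40 arrays (points) by group, with group means as black lines and array 2 of unrecombined Hex as an open point. That array reads 7.84 for Lefty1 and 7.63 for Ski, and Skil in clone 1 lies at 6.96 to 7.27 unrecombined and at 6.58 to 6.80 recombined.

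Lefty1, the secreted antagonist, varied widely within groups and passed in 0 of the comparisons, with or without array 2. Its brighter probe set had SDs within groups of 0.23 to 0.70 on the log2 scale, larger than every step between neighbouring groups. The recombined Hex arrays read 9.14, 9.70, 8.96 and 9.53, and the unrecombined ones 9.28, 7.84, 9.27 and 9.13. The groups overlap, and the difference of 0.45 ± 0.29 (SE) became 0.11 ± 0.27 without array 2. In HexERTVP2 cells without 4-OHT, recombined minus unrecombined was -0.63 ± 0.22, with an adjusted p of 0.231, and 0.0533 without array 2. The recombined arrays read 8.45 to 9.51 and the unrecombined ones 8.99 to 10.06.

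Beside Lefty1 stands the β-actin ratio. It ran from 0.56 to 2.34 over the arrays and was higher by 0.44 in recombined than in unrecombined HexERTVP2 cells without 4-OHT. With that ratio as a covariate in limma the Lefty1 difference was -0.25 ± 0.09 and did not pass (adjusted p = 0.208). Its SE in the Hex comparison went from 0.29 to 0.12. Covariate and removal of array 2 together gave -0.28 ± 0.08 in HexERTVP2 cells (adjusted p = 0.0301), where 428 of 12422 probe sets passed. Lefty1 with 4-OHT in recombined cells differed by 0.33 ± 0.22, and by 0.20 ± 0.09 with the covariate, and neither passed.

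The dimmer Lefty1 probe set read 5.71 to 6.28 on all 40 arrays, with group means from 5.88 to 6.18. Its suffix marks probes that may match a family of similar sequences. Lefty2, a close relative of Lefty1, is the symbol of none of the probe sets used here. Probe sequences were not checked, so whether either Lefty1 probe set also reads Lefty2 was not tested.

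Tdgf1, the Cripto co-receptor that Nodal needs, read lower with 4-OHT in recombined HexERTVP2 cells and did not pass. In log2 intensity clone 1 read 8.64, 8.74, 8.52 and 8.43 without 4-OHT and 8.02, 8.11, 8.36 and 7.97 with it. Clone 2 read 8.76, 8.76 and 8.48 without and 8.53, 8.36 and 8.19 with it. The groups were apart in clone 1 and overlapped in clone 2. The difference was -0.39 ± 0.09 (SE), 1.31-fold, with an adjusted p of 0.139, and of 0.0564 without array 2 of unrecombined Hex. In unrecombined cells it was 0.00 ± 0.09. The interaction, -0.39 ± 0.13, had an adjusted p of 0.9997.

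In Hex cells Tdgf1 read 8.66, 8.58, 8.82 and 8.78 unrecombined and 8.67, 8.62, 8.37 and 8.49 recombined. Those groups overlapped, and the difference of -0.17 ± 0.12 did not pass. Array 2 lay 0.13 below its group's mean here, a smaller gap than for Nodal. By mean level Tdgf1 ran from 8.71 ± 0.11 (SD, n = 4) in unrecombined Hex to 8.36 ± 0.17 in recombined clone 2 with 4-OHT and 8.11 ± 0.17 (SD, n = 4) in recombined clone 1 with 4-OHT. The last step, 0.25, was the 1 that exceeded the SD of both neighbours.

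Ski, the co-repressor first known as an oncogene, was steady outside the Hex groups. Its 28 HexERTVP2 arrays read 8.55 to 8.91 in log2 intensity. Unrecombined Hex read 9.17, 7.63, 9.13 and 9.07, and recombined Hex read 8.71, 8.51, 8.15 and 8.83. Arrays 1, 3 and 4 of unrecombined Hex were the highest of all 40 and array 2 the lowest. With array 2, recombined minus unrecombined was -0.20 ± 0.18 (SE, adjusted p = 0.607). Without it the difference was -0.57 ± 0.09, or 1.49-fold lower, with an adjusted p of 8.17e-05. Against wild type, at 8.74, 8.801, 8.87 and 8.89, recombined Hex differed by -0.27 ± 0.18 and did not pass with or without that array. Unrecombined Hex against wild type turned from -0.08 ± 0.18 to 0.30 ± 0.09 when array 2 was left out, and neither passed. With 4-OHT in recombined HexERTVP2 cells the difference was -0.01 ± 0.14.

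Skil (SnoN), the co-repressor related to Ski, differed with recombination in clone 1 of HexERTVP2. Without 4-OHT clone 1 read 7.14, 7.10, 7.14, 6.97 and 7.12 unrecombined and 6.68, 6.67, 6.80 and 6.78 recombined. With 4-OHT it read 7.27, 7.03 and 6.96 unrecombined and 6.58, 6.75, 6.72 and 6.74 recombined. No recombined array of clone 1 reached an unrecombined one at either setting. In clone 2 the 6 unrecombined arrays read 6.73 to 6.89 and the 6 recombined ones 6.61 to 6.89, and so overlapped.

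Skil in clone 1 fell by 0.36 ± 0.08 (SE, log2) without 4-OHT, with an adjusted p of 0.0209, where 0.547% of all probe sets passed. This split by clone was chosen after the values were seen, and the call ended without any 1 of 6 clone 1 arrays, 4 unrecombined and 2 recombined (adjusted p from 0.0542 to 0.0966). It also ended with the replicate number as a block (adjusted p = 0.0533) and in a fit of only the groups compared (0.0630). With 4-OHT the clone 1 difference was -0.39 ± 0.09 (adjusted p = 0.0594, where 0.209% passed), and it passed when any 1 of arrays 1, 2 and 3 of unrecombined Hex was left out. In clone 2 the differences were -0.02 ± 0.10 without and -0.08 ± 0.10 with 4-OHT, where 0.322% and 0.105% of probe sets passed. The difference between the clones, 0.34 ± 0.13, had an adjusted p of 0.476 (0.29% of probe sets passed), so the clones were not shown to differ. Averaged over clones, recombined minus unrecombined was -0.19 ± 0.06 (adjusted p = 0.213).

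In Hex cells Skil read 7.26, 6.80, 6.80 and 6.98 unrecombined, 6.77, 6.67, 6.63 and 6.87 recombined, and 7.05, 6.95, 6.92 and 6.88 in wild type. Recombined arrays lay below every wild-type array and overlapped the unrecombined ones. The difference from unrecombined was -0.22 ± 0.08 (SE, adjusted p = 0.155) and -0.28 ± 0.09 without array 2 (adjusted p = 0.0483). From wild type it was -0.21 ± 0.08 (adjusted p = 0.546). By mean level Skil ran from 7.10 ± 0.07 (SD, n = 5) in unrecombined clone 1 without 4-OHT to 6.70 ± 0.08 (SD, n = 4) in recombined clone 1 with it. The step from wild type at 6.95 to unrecombined clone 2 with 4-OHT at 6.82 was the 1 larger than the SD of both neighbours. The Skil probe set carries a suffix for probes shared between transcripts, and the Tdgf1 set 1 for a set that dropped some design rules.

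**Figure D3:**
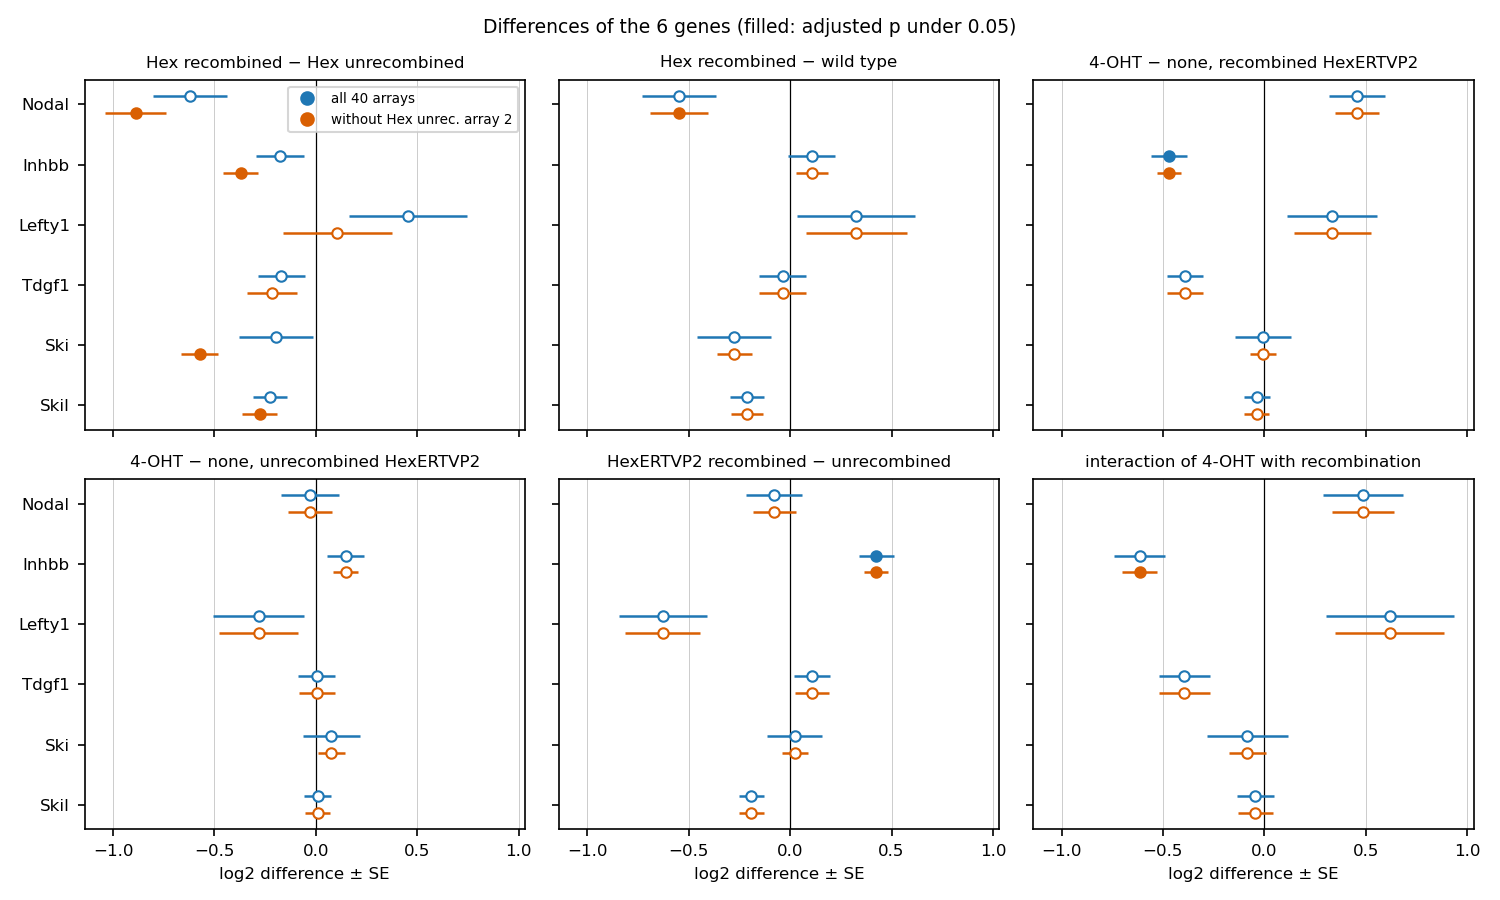
Log2 differences ± SE of the 6 genes in 6 comparisons, with all 40 arrays (blue) and without array 2 of unrecombined Hex (orange); filled points have an adjusted p under 0.05 in limma. Nodal in recombined against unrecombined Hex moves from -0.62 to -0.89 and Ski from -0.20 to -0.57 without that array, while Inhbb is filled at both settings for 4-OHT in recombined cells and for recombination of HexERTVP2.

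Counted over members, recombined against unrecombined Hex called 0 of 6 with all arrays, where 3.37% of all probe sets passed and 0.781% were lower. Without array 2 it called 4 of 6 (Nodal, Inhbb, Ski and Skil), all lower, where 6.26% of probe sets passed and 3.91% were lower. Lefty1 and Tdgf1 did not pass. Beside these, 3 of 12 pluripotency genes were higher in recombined cells with all arrays, and 3 higher and 2 lower without array 2. Of 10 fibroblast markers 2 were higher at both settings, and 2 of 6 neuroectoderm markers were lower and 1 higher. Of 12 endoderm and 10 primitive streak markers 0 passed at either setting. The part of these in the member results was not tested. In bulk RNA fewer cells of a type and less RNA per cell cannot be told apart. With 4-OHT in recombined cells 1 of 6 members passed, where 0.0322% of probe sets did, and between the clones of HexERTVP2, where 1.22% of probe sets passed (3.25% without array 2), 0 of 6 did. Skil had the smallest p of these 6, at -0.12 ± 0.05 (adjusted p = 0.324) for clone 2 minus clone 1. The clones' 4-OHT responses differed for 0 probe sets of all tested (0%), with 92 at an unadjusted p under 0.05.

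**Figure D4:**
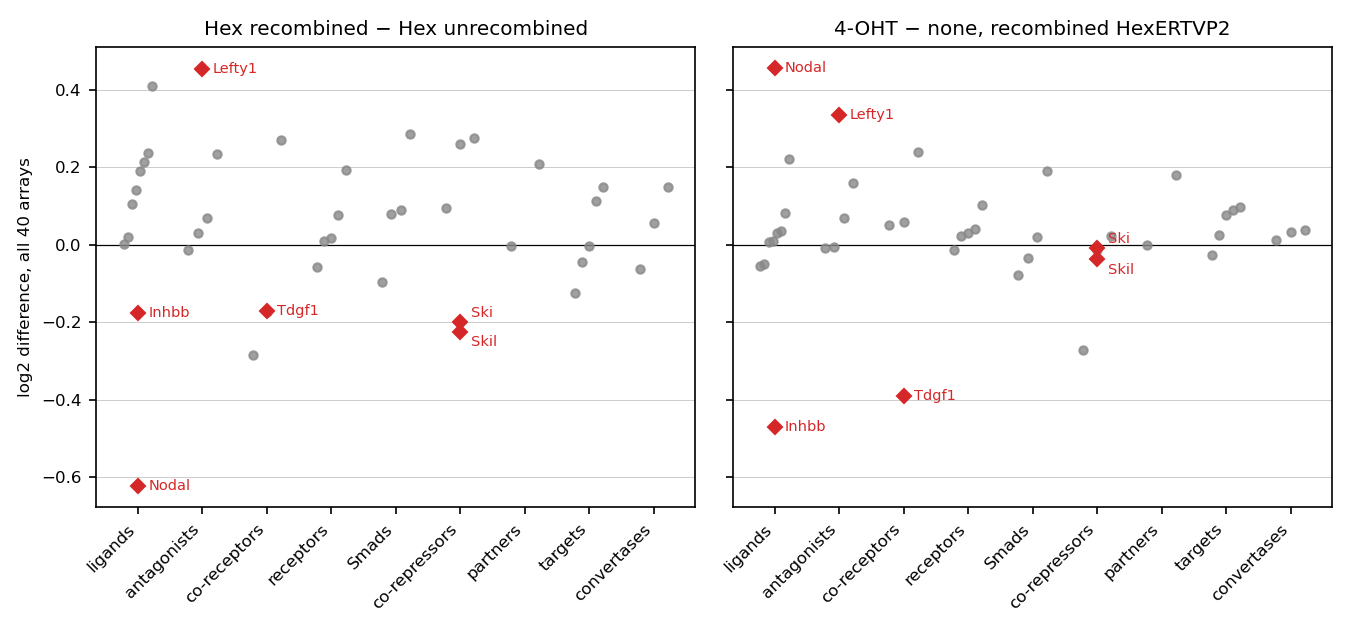
Log2 differences in 2 comparisons (all 40 arrays) for 37 other genes of Nodal, activin and TGF-β signalling (grey points) and the 6 members (red diamonds), by role. In the Hex comparison Nodal at -0.62 lies below and Lefty1 at 0.45 above all grey points, and with 4-OHT in recombined cells Nodal, Inhbb, Tdgf1 and Lefty1 lie outside all grey points. Lefty1 in the Hex comparison was 0.11 without array 2 of unrecombined Hex. Members were chosen with earlier results of these data known, so their place against the other genes is not a test.

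The wider pathway was read from a list of 55 genes, of which 43 were measured and 37 were not members: 8 ligands, 4 antagonists, 3 co-receptors, 5 receptors, 4 Smads, 3 co-repressors, 2 nuclear partners, 5 targets and 3 convertases or processing genes. Of these 37, 0 passed in recombined against unrecombined Hex, where 3.37% of all probe sets passed, with a median difference of 0.08 on the log2 scale against 0.01 over all probe sets. The extremes were the ligand Tgfb1 at 0.41 ± 0.15 (SE, adjusted p = 0.145) and the Cripto relative Cfc1 at -0.28 ± 0.15 (adjusted p = 0.333). Among receptors the range was from -0.06 for Tgfbr2 to 0.19 for Acvr2b, and among Smads from -0.10 for Smad3 to 0.29 for the inhibitory Smad7. Without array 2, 1 of 37 was higher: the ligand Tgfb2 at 0.39 ± 0.09 (adjusted p = 0.00630), where 6.26% of probe sets passed.

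With 4-OHT in recombined HexERTVP2 cells 0 of the 37 passed, where 0.0322% of all probe sets did, with a median of 0.03 against -0.0040 over all probe sets. The co-repressor Tgif1 stood lowest at -0.27 ± 0.15 and the co-receptor endoglin (Eng) highest at 0.24 ± 0.09. Tgfb1 differed by 0.22 ± 0.12, the activin-binding antagonist Fst by 0.16 ± 0.07, and the Smad partner Foxh1 by 0.18 ± 0.09. The 5 targets lay between -0.03 for Lhx1 and 0.10 for Eomes. Of the 37 genes 1 passed in another comparison with all arrays: Tgif1 was lower in unrecombined Hex than in wild type, at -0.65 ± 0.19 (adjusted p = 0.0467, where 4.82% of probe sets passed), and at -0.26 ± 0.11 without array 2 (adjusted p = 0.255). Without that array Tgif1 was lower in recombined Hex than in wild type (-0.39 ± 0.10, adjusted p = 0.0411, where 1.37% passed), and 4 genes were lower in clone 2 than in clone 1, where 3.25% passed: Tgif1 (-0.22), Smad2 (-0.25), Fst (-0.18) and Tgfb2 (-0.16).

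Likeness of pattern was measured as Pearson's r over the 11 group means among 2591 probe sets (2592 for Ski and Skil) of 1 symbol whose group means spanned at least 0.5 on the log2 scale, or 2172 or 2173 without array 2. It is a description: groups share arrays' processing and RNA quality, and the highest of so many values over 11 means is high in part by selection. Nodal was most like Tle4, a Groucho-type co-repressor gene, at 0.853, and at 0.885 without array 2. Taf1d and Ina followed at 0.742 each, and without array 2 Pnp at 0.848 and Apex1 at 0.813 took their places. For Inhbb the first was Kdm3a, a histone demethylase gene, at 0.852 (0.905 without array 2). Lefty1 was closest to Plk1, a mitotic kinase gene, at 0.961, and Tdgf1 to Gclm, a glutathione synthesis gene, at 0.798. Ski followed Son at 0.886. The gene ranked first stayed the same without array 2 for Nodal, Lefty1 and Skil, and changed for Inhbb (to Ei24), Tdgf1 (to Klf3) and Ski (to Dna2). Skil followed Ephx2, an epoxide hydrolase gene, at 0.952, and Pim2, a kinase gene, at 0.894. Between members the r of group means ran from -0.71 for Inhbb with Lefty1 to 0.62 for Inhbb with Tdgf1, and Nodal with Ski reached 0.57. Inhbb with Ski went from -0.20 to 0.44 without array 2.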

How the data were processed

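The deposited table holds 1 intensity per probe set and array, on a linear scale; the authors processed the arrays with RMA, per the submitters' processing notes, which give no version or settings. RMA corrects background, normalises by quantiles and summarises probes. Which arrays were normalised together, and the genome build, are not given in the sources used here. Intensity is relative, so the number of arrays limits the precision.

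Values were converted to log2. The 66 control sets were left out and 12422 probe sets fitted together in limma 3.58.1 (R 4.3.3; lmFit, eBayes, 29 residual degrees of freedom, two-sided), with Benjamini-Hochberg adjustment over all of them in each of 9 comparisons and a threshold of 0.05. Symbols came from the platform annotation. Where a gene had several probe sets, the one with the highest mean stood for it. Named genes were all members, pathway genes that passed or were extreme in their role, and up to 3 genes most like each member. Members, lists and rules were chosen with earlier results of these data known, and the splits by clone after seeing the values. The fit was tested on simulated data with independent noise and no outlying array. That test therefore does not cover array 2 of unrecombined Hex or likeness between arrays of the same replicate number. Residuals of arrays with the same replicate number had a median correlation of 0.124, against -0.067 for different numbers, and 50.9% of same-number pairs were over 0.1. Arrays of the same number were thus somewhat more alike, and the labels do not say what the numbers mean. The main fit does not use them, so spread shared by a number stays in its SEs, and a replicate block was fitted as an alternative. No 2 arrays were identical (0 pairs). In 4 arrays the words and the code of the title named different clones or treatments, and these were not compared; in 1 array of recombined clone 2 with 4-OHT a stray minus sign in the code was ignored. Promoters came from RefSeq (GRCm38.p6). Alternatives were median centring, a filter on dim probe sets, eBayes with trend, fits of the compared groups only, and a replicate block. Others were the β-actin ratio as covariate, the same without array 2 of unrecombined Hex, and leaving out each array. Figures were drawn with matplotlib 3.10.9.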

Additional observations from a re-analysis of the deposited data

Results flagged for a closer look

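Of 42 sets of values of 1 probe set in 1 group of 4 or 5 arrays, 5 had an array far from the others by Dixon's 95% criterion, which chance gives in about 1 of 20. Array 2 of unrecombined Hex was the lowest of its group for Nodal at 7.15, for Lefty1 at 7.84 and for Ski at 7.63 in log2 intensity. Array 4 of the same group was the highest for the dimmer Lefty1 probe set, at 6.23. Array 4 of unrecombined clone 1 without 4-OHT was the lowest for Skil, at 6.97.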

How the results depend on the processing

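The tally covers 7 settings, among them the β-actin covariate combined with removal of array 2 of unrecombined Hex. Leaving out each array in turn is not in it. Of 400 values of members, 357 kept direction and side of the threshold, 27 came to pass it, 3 no longer passed it and 13 changed sign. The cause of these changes was not tested. Differences here are on the log2 scale, and numbers after "called" are probe sets past the threshold. The order of comparisons is recombined against unrecombined Hex (A), recombined Hex against wild type (B), unrecombined Hex against wild type (C), 4-OHT in recombined (D) and in unrecombined HexERTVP2 cells (E), their interaction (F), recombination of HexERTVP2 without 4-OHT (G), clone 2 minus clone 1 (H) and the clones' difference in D (I). With all arrays these called 419, 33, 599, 4, 0, 2, 58, 151 and 0. Recomputed were the 6 genes in A to G, Skil in H, Nodal and Inhbb in I, and the differences by clone that the report prints; other member differences in H and I, and those of the dimmer Lefty1 probe set, some of which changed sign, are not reported. Pathway genes were recomputed only without array 2 of unrecombined Hex.

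With the β-actin covariate, A called 656, B 61, D 12, F 4, G 93 and H 333. Nodal came to pass in A (-0.77) and B (-0.57), and Inhbb in C (0.33) and F (-0.68). Signs changed for Lefty1 in C (0.12), Nodal in E (0.061), G (0.11) and I (0.25), and Tdgf1 in E (-0.0049). With the covariate and no array 2 of unrecombined Hex, called were A 1638, B 613, C 903, D 35, F 10, G 428 and H 761. In A Nodal (-0.92), Inhbb (-0.38), Ski (-0.58) and Skil (-0.28) passed, in B Nodal (-0.57) and Ski (-0.28), in C Nodal (0.35) and Inhbb (0.48), in D Nodal (0.40) and Tdgf1 (-0.38), in F Inhbb (-0.65), and in G Lefty1 (-0.28). Signs changed for Lefty1 (0.25) and Ski (0.30, which then passed) in C, Nodal in E (0.043), G (0.072) and I (0.17), and Tdgf1 in E (-0.011). The filter on dim sets called D 2, F 1, G 36 and H 96, and Nodal passed in A (-0.62), as it did with median centring (-0.67). The filter left Inhbb out. Fits of only the groups compared called A 8, C 14, F 7, G 103 and H 299, Inhbb passed in F (-0.62), and Skil in clone 1 without 4-OHT no longer passed (-0.36, adjusted p = 0.0630). By clone, Inhbb without 4-OHT came to pass for recombination of clone 1 in such a fit (0.44) and with the covariate (0.54). With the covariate and no array 2 it passed for recombination of clone 1 (0.50) and clone 2 (0.43). There Inhbb also passed for 4-OHT in recombined clone 1 (-0.44) and clone 2 (-0.53). Skil for recombination of clone 1 with 4-OHT passed with the covariate, with and without array 2 (-0.39 each).

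With the replicate number as a block, Inhbb in D (-0.47, adjusted p = 0.0564) and Skil in clone 1 without 4-OHT (-0.35, adjusted p = 0.0533) no longer passed, and signs changed for Tdgf1 in E (-0.0072) and for Skil in clone 2 without 4-OHT (0.0050).

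Leaving out each array gave 233 to 778 calls in A, 26 to 170 in B, 378 to 1595 in C, 3 to 18 in D, 1 to 8 in F, 25 to 420 in G and 125 to 404 in H. In A Nodal ran from -0.89 to -0.48, Inhbb from -0.37 to -0.060, Ski from -0.57 to -0.059 and Skil from -0.28 to -0.12. In B Nodal ran from -0.63 to -0.40 and Tdgf1 from -0.10 to 0.043. In C the ranges were -0.045 to 0.34 for Nodal, 0.17 to 0.48 for Inhbb, -0.26 to 0.22 for Lefty1, -0.22 to 0.30 for Ski and -0.087 to 0.067 for Skil. In D Inhbb ran from -0.50 to -0.44 and Ski from -0.028 to 0.015; in E Nodal from -0.11 to 0.046, Tdgf1 from -0.057 to 0.079 and Skil from -0.038 to 0.040; in F Inhbb from -0.65 to -0.58 and Skil from -0.077 to 6.3e-04; and in G Inhbb from 0.39 to 0.46 and Ski from -0.014 to 0.049. By clone, Skil in clone 2 without 4-OHT ran from -0.080 to 0.029, and the clones' difference in G for Inhbb from -0.10 to 0.030.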

Other observations

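The 4 arrays whose titles disagree with themselves belong to no group. In log2 intensity they read 7.62, 7.79, 7.80 and 8.25 for Nodal, 4.91, 4.86, 5.16 and 4.98 for Inhbb, and 8.24, 9.36, 8.74 and 8.96 for Lefty1. For Tdgf1 they read 8.94, 8.45, 8.72 and 8.69, for Ski 8.83, 8.85, 8.45 and 8.77, and for Skil 7.11, 6.79, 6.68 and 6.84. For these 6 probe sets all lie inside the range of the 40 compared arrays except Tdgf1 on the first of them, which was above the highest at 8.89. Of the compared arrays, array 2 of unrecombined Hex alone (7.84) lies below the first of them in Lefty1, and the next lowest reads 8.45. In the first and the last of the 4 the words and the code differ in the clone only. Both versions name unrecombined cells with 4-OHT for the first and recombined cells with 4-OHT for the last. The last read above all compared recombined arrays with 4-OHT for Tdgf1 (7.97 to 8.53) and for Inhbb (4.56 to 4.88). Its Nodal value of 8.25 lay inside their range (7.98 to 8.52).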
